A study of Mus musculus with 12 samples.

Results

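The 9 genes described here encode the CD3 chains of the T cell receptor complex (Cd3e, Cd3d, Cd3g and Cd247), the coreceptor CD4 (Cd4), the kinases Lck and Zap70 and the adaptors Lat and Lcp2. They were chosen by gene symbol from a table of 45777 genes, all 9 were found, and all 9 were among the 15197 genes that passed the filter on low values (an FPKM of 0.5 or more in 3 or more samples). FPKM scales the fragments of a gene to the length of its transcript and the size of the library. The RNA came from CD4+ T cells of the spleen of wild type C57BL/6 mice, given as 7 weeks of age in the labels, which were cultured for 3 days with anti-CD3 at 0.5 ug/ml. There were 4 groups of 3 samples: Control had anti-CD3 and no drug, and the others had in addition metformin, FK506 (also called tacrolimus), or both drugs together (Metformin+FK506, the combination). Every group, Control included, was stimulated through CD3, so there was no unstimulated group. The labels do not say that the 3 samples of a group came from separate mice or cultures, so the p-values measure only the spread between these samples, which may be technical. The drug concentrations of these cultures are not given in the sources used here.

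The T cell receptor has no signalling domain of its own and is assembled with dimers of CD3 epsilon with CD3 gamma, of CD3 epsilon with CD3 delta, and of the zeta chain encoded by Cd247. When the receptor binds antigen, or when CD3 is crosslinked by antibody, Lck phosphorylates the tyrosine motifs of these chains, Zap70 docks on them and in turn phosphorylates the membrane adaptor Lat, and Lcp2 (the adaptor SLP-76) bridges Lat to the enzymes that release calcium. FK506 acts further down the same pathway, on calcineurin, the calcium-dependent phosphatase that lets the factor NFAT enter the nucleus, and metformin is an oral glucose-lowering drug that lowers mitochondrial respiration. The comparison of the groups asked how each drug, and the combination, changed the RNA of these proximal components.

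In RefSeq (GRCm38.p6, the assembly also called mm10) 3 of the CD3 genes lie side by side on chromosome 9: Cd3g (gene 12502) at chr9:44969572-44980431, Cd3d (12500) at chr9:44981769-44987052 and Cd3e (12501) at chr9:44998735-45009663. Cd3g and Cd3d are transcribed away from each other from start sites 1355 bases apart, and the start site of Cd3e lies 27825 bases from that of Cd3d. The other members are Cd247 (12503) and Zap70 (22637) on chromosome 1, Lck (16818) on chromosome 4, Cd4 (12504) on chromosome 6, Lat (16797) on chromosome 7 and Lcp2 (16822) on chromosome 11. Promoter sequences were found in the RefSeq table for 8 of the 9 genes, all but Cd4. Those of the 3 neighbours are printed because Cd3d changed otherwise than Cd3g and Cd3e, and that of Lcp2 because on the main scale used here (TMM-scaled counts) it had the largest change of the 9 genes with FK506. Each runs 5′ to 3′ on the gene's strand from 250 bases before the start site, and capitals mark the letters GGAAA, the core that NFAT factors bind, or their reverse complement TTTCC.
Cd3g, chr9:44980382-44980681, minus strand: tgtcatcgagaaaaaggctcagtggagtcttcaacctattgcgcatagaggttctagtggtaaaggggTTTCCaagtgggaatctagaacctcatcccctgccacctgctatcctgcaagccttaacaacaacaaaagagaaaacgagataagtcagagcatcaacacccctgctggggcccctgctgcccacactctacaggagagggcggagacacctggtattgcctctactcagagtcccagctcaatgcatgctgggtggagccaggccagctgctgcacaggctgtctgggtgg
Cd3d, chr9:44981536-44981835, plus strand: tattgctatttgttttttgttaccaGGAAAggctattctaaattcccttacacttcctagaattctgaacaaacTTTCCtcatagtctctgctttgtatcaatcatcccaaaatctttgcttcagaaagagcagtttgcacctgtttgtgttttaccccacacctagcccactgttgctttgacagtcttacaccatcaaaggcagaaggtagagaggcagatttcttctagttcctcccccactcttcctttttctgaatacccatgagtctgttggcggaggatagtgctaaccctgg
Cd3e, chr9:45009562-45009861, minus strand: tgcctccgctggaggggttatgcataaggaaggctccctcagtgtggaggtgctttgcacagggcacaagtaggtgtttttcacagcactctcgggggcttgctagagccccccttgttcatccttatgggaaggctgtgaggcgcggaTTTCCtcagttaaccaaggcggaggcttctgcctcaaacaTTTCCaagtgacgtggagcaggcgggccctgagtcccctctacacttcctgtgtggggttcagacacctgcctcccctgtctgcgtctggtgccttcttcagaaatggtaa
Lcp2, chr11:34046678-34046977, plus strand: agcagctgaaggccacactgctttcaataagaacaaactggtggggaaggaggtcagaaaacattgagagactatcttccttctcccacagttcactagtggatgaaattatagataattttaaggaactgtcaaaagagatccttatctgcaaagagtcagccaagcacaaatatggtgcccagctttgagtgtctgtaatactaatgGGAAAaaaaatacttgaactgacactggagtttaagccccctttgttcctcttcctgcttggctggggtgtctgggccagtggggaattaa
The letters occurred 1 time in the windows of Cd3g and Lcp2 and 2 times in those of Cd3d and Cd3e. Of 32851 promoters of the same length 61.3% held them at least once, so their presence here is what most promoters show.

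Each sample had between 43402632 and 64290105 counted reads, and a member's own count was between 8338 (Zap70) and 50094 (Cd4). The CD4+ cells were isolated on magnetic beads, and the RNA held markers of other cell types at levels that differed between the groups. A list of 10 B cell markers summed to 163–186 FPKM in Control and 218–250 with metformin, but to 3079–3196 with FK506 and 1855–2060 with the combination. A list of 10 myeloid markers summed to 7.18–7.57 and 9.84–11.2 FPKM in the first pair of groups, with 3 of the 10 genes at 0 in every Control sample and 5 of the 10 with metformin, against 1402–1456 with FK506 and 951–1073 with the combination. In the same groups, 10 T cell markers that are not members summed to between 2575 and 2700 FPKM in every sample, but to 5264–5581 TPM without FK506 and 6405–6679 with it. This sum hides changes in both directions, since with FK506 3 of the 10 were higher and 6 lower (median −0.41 on the log2 scale, TMM), and with the combination against Control 4 were higher and 6 lower (median −0.44). CD8 markers (2 genes) were 9.01–9.52 FPKM without a drug and 12.9–13.2 under metformin, against 6.84–7.35 under FK506 and 6.93–8.64 under both drugs. NK cell markers (5 genes) were 4.95–11.1 without FK506 and 16.1–17.5 with it, gamma delta T cell markers (2 genes) 1.29–2.1 and 5.03–6.76, and red blood cell and platelet markers (4 genes) 0.0060–0.11 and 8.48–18.6. The B cell and myeloid lists move with every comparison of a FK506 group with a group without it, and their part in the members' values was not tested. In bulk RNA a smaller share of T cells and less of a transcript per T cell cannot be told apart.

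**Figure D1:**
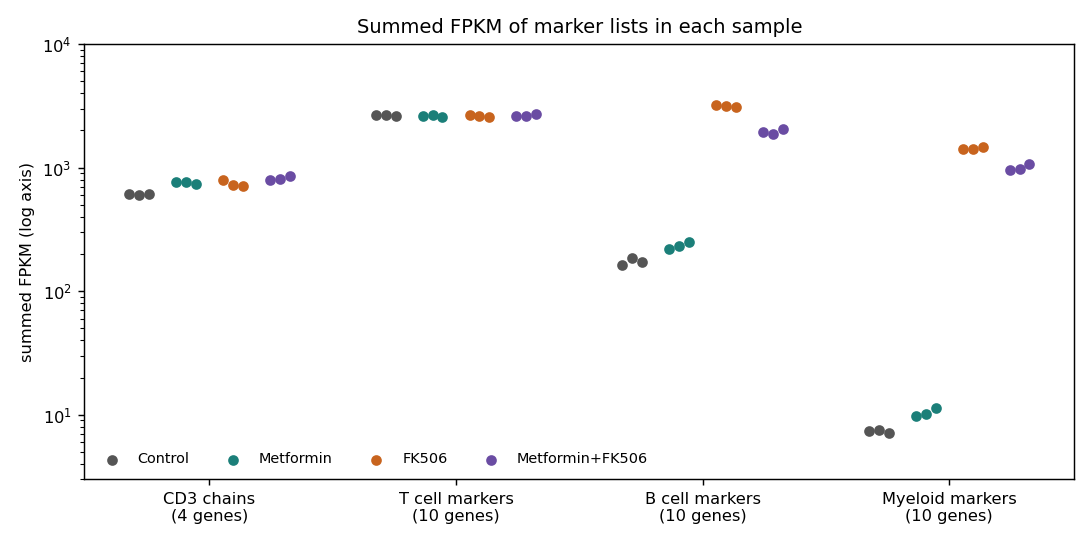
Summed FPKM (log axis) of the 4 CD3 chains, 10 T cell markers, 10 B cell markers and 10 myeloid markers, with 1 point per sample and 3 samples per group. The sum of the T cell markers, of which 3 were higher and 6 lower with FK506, lies at 2575–2700 FPKM in all samples, while the B cell markers rise from 163–186 in Control to 3079–3196 with FK506.

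The scale matters for the comparisons of groups with and without FK506. The fold changes below come from read counts scaled by TMM (edgeR), under which the median gene moved by 0.02 (log2) between FK506 and Control. On TPM (transcript levels scaled to the same total in each sample) the median gene moved up by 0.44 relative to this scale in FK506 and the combination against Control and by 0.46 in the combination against metformin. On total counts the shift was 0.22, 0.22 and 0.18 in these 3 comparisons, and on FPKM it was 0.20, 0.17 and 0.15. The share of called genes that were higher was 51.1% with TMM and 71.2% with TPM for FK506, 51.6% and 71.0% for the combination against Control, and 51.6% and 75.5% for the combination against metformin. A change on the TMM scale is therefore a change relative to the bulk of genes, and where the direction of a called change turns on another scale it is given beside the value. Ratios of 2 genes within a sample do not depend on the scale and are given as well.

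Levels between genes were compared on FPKM, which is per length. In Control the adaptor Lat was the highest member, at 302 ± 6.19 FPKM (SD, n = 3), followed by Lck at 227 ± 4.43, Cd3g at 216 ± 2.40, Cd3d at 167 ± 2.85, Cd3e at 152 ± 3.52, Lcp2 at 146 ± 1.33, Cd4 at 140 ± 2.45, Zap70 at 102 ± 4.59 and Cd247 at 71.9 ± 1.41. No neighbours in this order overlapped in their samples. With FK506 the order began with Cd3g at 272 ± 3.88 FPKM, Lat was second at 224 ± 12.6, and Zap70 was last at 76.8 ± 2.42, below Lcp2 at 82.2 ± 2.65. With the combination Cd3g was first at 318 ± 4.11 FPKM, and Cd3e at 242 ± 5.03, Cd4 at 242 ± 13.9 and Lat at 224 ± 3.98 followed, where Cd4 overlapped with both of its neighbours. With metformin alone the order began with Lat at 273 ± 12, Lck at 264 ± 4.0 and Cd3g at 259 ± 15 FPKM, each of which overlapped with the next. Thus the adaptor and kinase were the most abundant messages of the set in Control, and a CD3 chain was the most abundant in both groups with FK506.

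**Figure D2:**
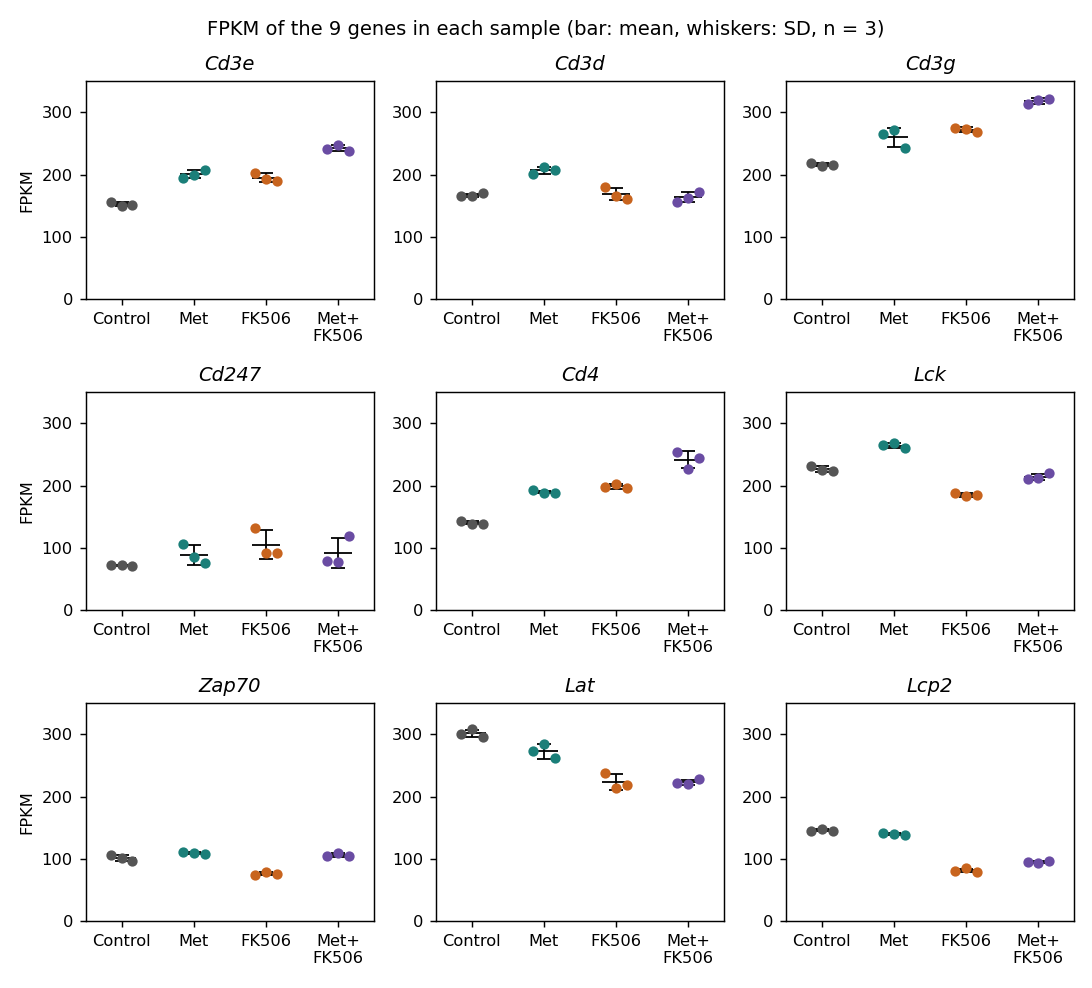
FPKM of each of the 9 genes in the 12 samples, with points for samples, a bar for the mean of a group and whiskers for the SD (n = 3). Lcp2 lies at 146–148 in Control and at 79.9–85.1 with FK506, whereas Cd3g lies at 214–219 and 267–274.

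With FK506 alone the members changed in both directions. On the TMM scale the 2 kinases, the 2 adaptors and the chain Cd3d fell, Lcp2 most, which fell by 51.7%, while Cd3e, Cd3g, Cd247 and the coreceptor Cd4 rose. On other scales Cd3d turned and the call of Lck was lost on TPM. Of the 9 members 4 were higher and 5 lower (adjusted p under 0.05), where 41.3% of all tested genes were higher and 39.6% lower (80.9% in either direction), and the samples of the groups did not overlap in FPKM for 8 members, where 84.4% of all tested genes were so separated. Being called is therefore no mark of the members, and only the sizes and directions are described. The median absolute change of all tested genes was 0.70 (log2), which only Lcp2 exceeded.

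The normalised count of Lcp2, the scaffold that ties Lat to phospholipase C gamma, was 617, 629 and 621 CPM (counts relative to library size after TMM scaling) in the 3 Control samples and 299, 310 and 294 with FK506. The FK506 samples all lay below the Control samples, and the log2 fold change was −1.05 ± 0.03 (SE, adjusted p = 1.84e-14, edgeR's quasi-likelihood test). Lat, the membrane adaptor that Zap70 phosphorylates, stood at 447, 459 and 442 in Control and at 305, 274 and 281 with FK506. Its groups were separate as well, with a log2 fold change of −0.65 ± 0.04 (adjusted p = 4.87e-10). Zap70, the kinase recruited to the phosphorylated CD3 chains, was 279, 264 and 257 in Control and 169, 178 and 170 with FK506. The change was −0.63 ± 0.04 (adjusted p = 4.56e-10), and again no FK506 sample reached the Control range. Lck, the Src family kinase that starts the cascade, was 575, 559 and 559 in Control and 404, 391 and 399 with FK506, a change of −0.50 ± 0.03 (adjusted p = 3.20e-10). On TPM the decrease of Lck shrank to −0.05 with an adjusted p of 0.063, while those of Zap70 (−0.17), Lat (−0.19) and Lcp2 (−0.59) passed the test on that scale too.

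The CD3 chains did not all move in 1 direction, and the size of their changes depended on the scale. On TPM the changes of Cd3e, Cd3g and Cd4 were 0.59, 0.57 and 0.74, larger than those of Lck, Zap70 and Lat on that scale, whereas on the TMM scale they were smaller. Cd3e, the chain shared by both CD3 dimers, was 268, 258 and 259 CPM in Control and 299, 284 and 281 with FK506, which gave a log2 fold change of 0.14 ± 0.04 (adjusted p = 0.0031). Cd3g rose by a like amount, 0.12 ± 0.04 (adjusted p = 0.012), with 262, 257 and 259 in Control against 284, 282 and 278, though without the filter on low values its adjusted p was 0.095. Cd247, which carries most of the tyrosine motifs of the complex, rose by 0.15 ± 0.04 (adjusted p = 0.0024). The groups were apart for these 3 chains, by margins that were small beside their levels. Cd3d was 239, 241 and 245 in Control and 229, 208 and 205 with FK506, a change of −0.18 ± 0.05 (adjusted p = 0.0024), but its direction depended on the scale: on 6 alternative scales the change was between 0.02 and 0.25. Cd4, the coreceptor that carries Lck to the receptor, was 516, 502 and 503 in Control and 612, 629 and 612 with FK506, a rise of 0.29 ± 0.03 (adjusted p = 1.11e-06). Cd3e, Cd247 and Cd4 were higher and Zap70, Lat and Lcp2 lower, each past the threshold, under all 25 alternative settings.

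**Figure D3:**
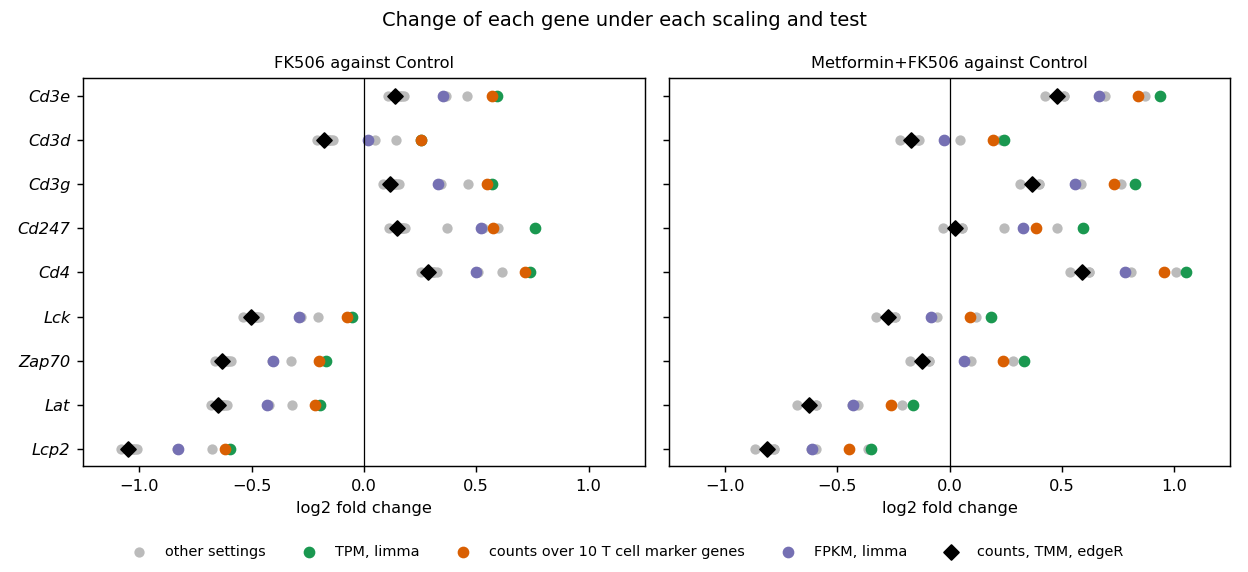
Log2 fold change of each gene against Control for FK506 (left) and Metformin+FK506 (right), under counts with TMM and edgeR (diamonds) and under each other scaling or test (circles). With FK506, Lcp2 stays between −1.08 and −0.59 and Cd4 between 0.25 and 0.74, while Cd3d crosses 0 and with the combination Cd3d, Cd247, Lck and Zap70 cross 0.

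Levels were also expressed per Cd3e transcript in the same sample, which removes the scale. Cd3e itself rose, so a lower ratio says that a gene fell or rose by less than Cd3e. With FK506 the count ratio to Cd3e changed by −56.1% for Lcp2, −42.1% for Lat, −41.3% for Zap70 and −36.0% for Lck, and in each case the 3 FK506 samples lay below the 3 Control samples. The ratio of Cd3g to Cd3e was 0.991 ± 0.012 (SD, n = 3) in Control and 0.976 ± 0.025 with FK506, and that of Cd247 to Cd3e was 0.782 ± 0.0039 and 0.785 ± 0.029. For both of these chains the groups overlapped. The ratio of Cd4 to Cd3e was 1.94 ± 0.010 in Control and 2.14 ± 0.089 with FK506, with separate groups. A permutation test of 3 against 3 samples cannot give a two-sided exact p under 0.1, so the ratios are described by their overlap only.

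**Figure D4:**
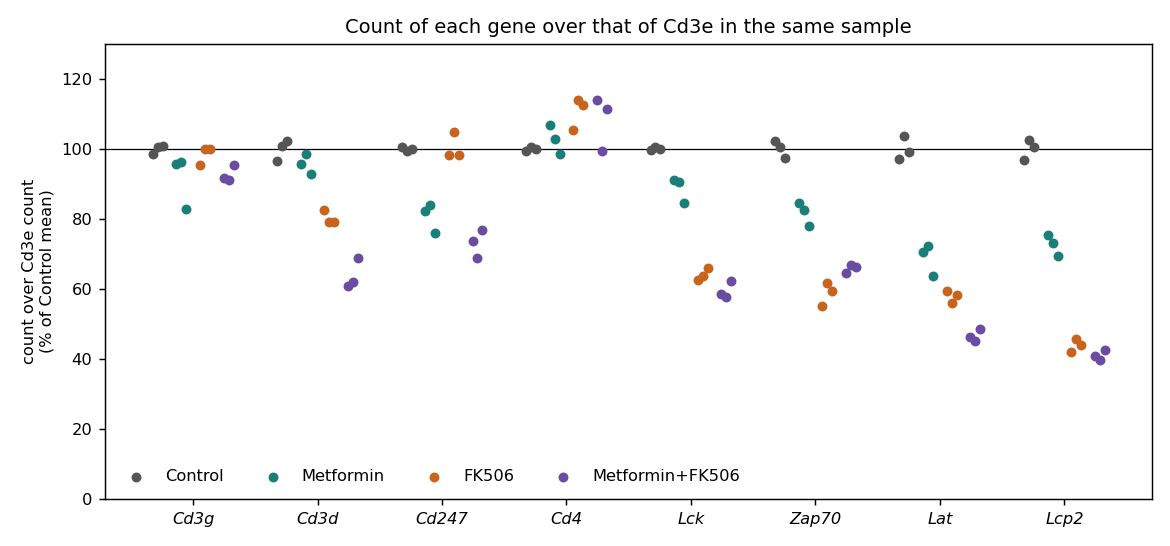
Count of each gene over the count of Cd3e in the same sample, as a percentage of the mean of that ratio in Control, with 1 point per sample. Lcp2, Lat, Zap70 and Lck fall from Control to FK506, and the ratio of Lcp2 decreased by 56.1%, while Cd3g and Cd247 overlap with Control.

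Cd3d behaved unlike its neighbours Cd3g and Cd3e, whose promoters are printed above. The FPKM ratio of Cd3d to Cd3g was 0.772 ± 0.018 (SD, n = 3) without a drug, 0.799 ± 0.048 under metformin, 0.620 ± 0.028 under FK506 and 0.514 ± 0.018 under the combination. Metformin alone overlapped with Control, FK506 lay below both, and the combination lay below FK506 without overlap. To Cd3e the count ratio of Cd3d was 0.925 ± 0.027 in Control, 0.742 ± 0.018 with FK506 and 0.591 ± 0.040 with the combination, which decreased by 19.7% and by 36.1%. The ratio of this neighbouring gene pair was therefore not the same in all groups.

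Metformin alone gave another pattern: Cd3e, Cd3d, Cd3g, Cd4 and Lck were higher, and the adaptors were slightly lower on the TMM scale. Of the 9 members 5 were higher and 2 lower, where 28.6% of all tested genes were higher and 27.4% lower (56% in either direction), and all 9 were apart in FPKM, where 65% of all tested genes were, though on CPM Cd247 and Zap70 overlapped with Control. The changes were modest, since the median absolute change of all genes was 0.30 (log2) and only Cd3e and Cd4 exceeded it. Cd4 was 677, 667 and 664 CPM with metformin against 502–516 in Control, a log2 fold change of 0.40 ± 0.03 (adjusted p = 5.67e-08, edgeR). Cd3e was 327, 334 and 347 against 258–268, a change of 0.36 ± 0.04 (adjusted p = 6.02e-07). For both genes each metformin sample lay above each Control sample. Cd3d rose by 0.30 ± 0.05 (adjusted p = 3.74e-05), Cd3g by 0.23 ± 0.04 (adjusted p = 8.97e-05) and Lck by 0.19 ± 0.03 (adjusted p = 9.79e-05), and these 5 calls held under every alternative setting.

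The kinase Zap70 differed from Control by 0.07 ± 0.04 (adjusted p = 0.17) and the zeta chain Cd247 by 0.05 ± 0.04 (adjusted p = 0.26) with metformin, and neither passed the test. Under 6 other settings Zap70 was called higher, by 0.10 to 0.21, and Cd247 was called higher with upper quartile scaling (0.098, adjusted p = 0.042) and on the T cell marker scale (0.14, adjusted p = 0.0047). Lat was 397, 416 and 380 CPM with metformin against 442–459 in Control, a change of −0.18 ± 0.04 (adjusted p = 0.0023). Lcp2 was 588, 582 and 574 against 617–629, a change of −0.10 ± 0.03 (adjusted p = 0.014). The samples of both adaptors were apart from Control, but after quantile normalization the changes were 0.03 and 0.07, in the other direction. The call of Lat was also lost on the T cell marker scale (adjusted p = 0.083). That of Lcp2 was lost with upper quartile scaling (0.17), on total counts (0.083), on the T cell marker scale (0.80) and on FPKM with pseudocounts of 1 (0.072) and 0.1 (0.067), each given as the adjusted p. It also rested on single samples, since its adjusted p was 0.053 without Control replicate 2 and 0.053 without metformin replicate 3. With metformin the ratio to Cd3e changed by −31.1% for Lat, −27.3% for Lcp2, −19.2% for Cd247, −18.3% for Zap70 and −11.2% for Lck, each without overlap between the groups.

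**Figure D5:**
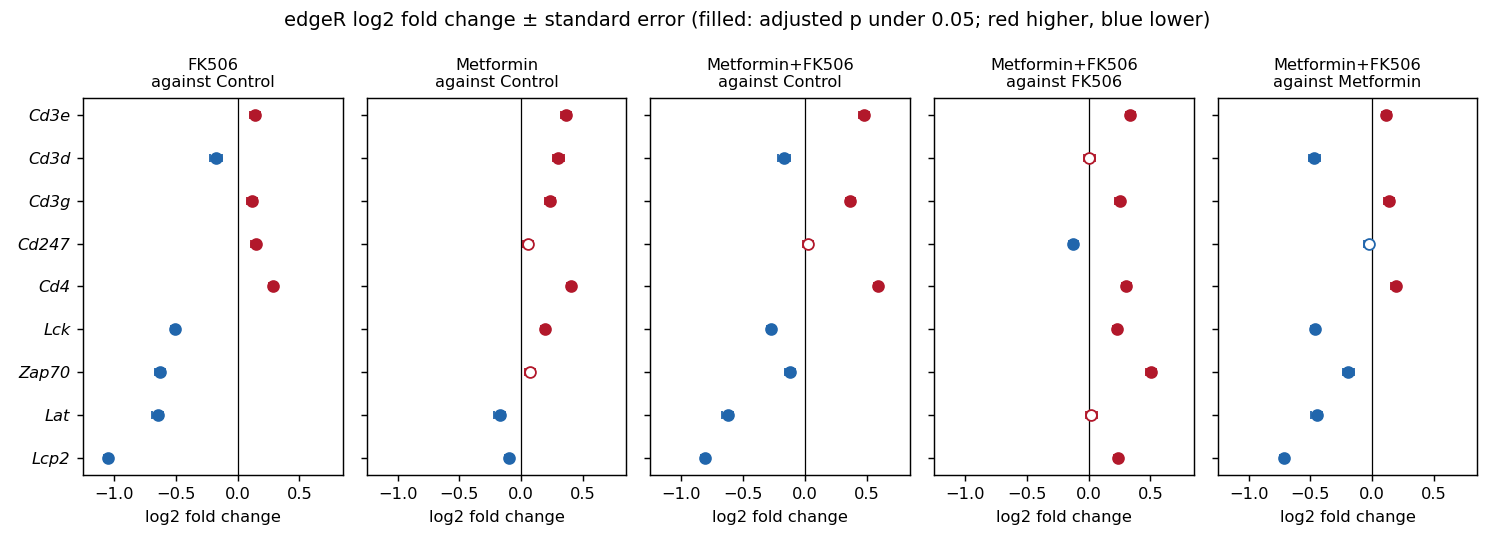
Log2 fold change of each gene (edgeR, TMM) in the 5 comparisons, with whiskers for the standard error; filled points have an adjusted p under 0.05, red for higher and blue for lower. On this scale the kinases and adaptors lie left of 0 wherever FK506 was added, though on TPM Lck and Zap70 do not in the combination against Control, nor Lck, Lat and Zap70 in the combination against metformin, and metformin added to FK506 moves Zap70 by 0.51.

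The combination against Control joined both patterns, with Cd4 and 2 CD3 chains higher than under either drug alone and the adaptors lower than Control. For the 2 chains, Cd3e and Cd3g, the difference from metformin alone was small. Without the filter on low values these calls were lost (edgeR adjusted p = 0.13 and 0.061). Of the 9 members 3 were higher and 5 lower, where 42.1% of all tested genes were higher and 39.6% lower (81.7% in either direction), and 7 were apart in FPKM, where 82% of all tested genes were. Cd4 was 794, 730 and 763 CPM against 502–516 in Control, a log2 fold change of 0.59 ± 0.03 (adjusted p = 1.05e-10, edgeR). Cd3e was 359, 379 and 354 against 258–268, a change of 0.48 ± 0.04 (adjusted p = 5.94e-09), and Cd3g was 327, 342 and 335 against 257–262, a change of 0.37 ± 0.04 (adjusted p = 2.19e-07). For these 3 genes the samples of the groups were far apart. The adaptors remained low: Lcp2 was 349, 358 and 358 against 617–629, a change of −0.81 ± 0.03 (adjusted p = 4.90e-13), and Lat was 286, 293 and 295 against 442–459, a change of −0.62 ± 0.04 (adjusted p = 7.55e-10). These 5 calls passed under all alternative settings.

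The other 4 members of this comparison were less certain. Lck was lower by −0.27 ± 0.03 on the log2 scale (adjusted p = 7.52e-07, edgeR), Cd3d by −0.17 ± 0.05 (adjusted p = 0.0031) and Zap70 by −0.12 ± 0.04 (adjusted p = 0.012), and on TPM the same genes were higher by 0.19, 0.24 and 0.33. Without Control replicate 1 the change of Zap70 was −0.09 with an adjusted p of 0.072. Cd247 differed by 0.02 ± 0.04 (adjusted p = 0.58) and was called higher under 4 other settings, by 0.24 on total counts, 0.39 on the T cell marker scale, 0.48 on quantile-normalized FPKM and 0.60 on TPM, the last pair of which rest on its length-scaled values. The ratio to Cd3e, which itself rose here, so that a lower ratio says only that a gene changed by less than Cd3e, changed by −59.0% for Lcp2, −53.4% for Lat, −40.5% for Lck, −34.1% for Zap70 and −26.9% for Cd247, in each case without overlap. Of the 3 drug groups the combination had the lowest mean ratio to Cd3e for all of these genes but Zap70.

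The addition of metformin to FK506, which both groups contain, was the comparison least touched by scale: no alternative moved the median gene by more than 0.07 (log2). Zap70 rose most, and 5 other members rose with it. Of the 9 members 6 were higher and 1 lower, where 15.6% of all tested genes were higher and 15% lower (30.7% in either direction), and 6 were apart in FPKM, where 38.6% of all tested genes were. The same 6 exceeded the median absolute change of all genes, which was 0.16. Zap70 was 237, 258 and 239 CPM with the combination and 169, 178 and 170 with FK506, a log2 fold change of 0.51 ± 0.04 (adjusted p = 1.49e-07, edgeR). Cd3e was 359, 379 and 354 against 299, 284 and 281, a change of 0.34 ± 0.04 (adjusted p = 5.28e-06). Cd4 changed by 0.30 ± 0.03 (adjusted p = 5.67e-06), Cd3g by 0.25 ± 0.04 (adjusted p = 0.00014), Lcp2 by 0.24 ± 0.03 (adjusted p = 2.93e-05) and Lck by 0.23 ± 0.03 (adjusted p = 4.56e-05). All 6 genes were higher in every sample of the combination than in every FK506 sample, and all 6 calls held under every alternative setting.

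In the same comparison Cd3d differed by 0.01 ± 0.05 (adjusted p = 0.94) and Lat by 0.02 ± 0.04 (adjusted p = 0.73), and for both the samples overlapped and the sign turned under other settings. Cd247 fell by 0.12 on the log2 scale (SE 0.04, adjusted p = 0.023), a call that was lost without FK506 replicate 1 (−0.12, adjusted p = 0.073), without FK506 replicate 2 (−0.11, adjusted p = 0.077) or without combination replicate 2 (−0.11, adjusted p = 0.056). B cell markers were lower in the combination (1855–2060 FPKM) than with FK506 (3079–3196), as were myeloid markers (951–1073 and 1402–1456), and their part in the rise of the members was not tested. The ratio to Cd3e, which takes out what Cd3e shares, increased by 12.3% for Zap70. It changed by −27.2% for Cd247, −20.3% for Cd3d, −19.5% for Lat and −7.09% for Lck, each without overlap. The ratio of Lcp2 to Cd3e was 1.04 with FK506 and 0.976 with the combination, with overlapping samples.

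On the TMM scale the addition of FK506 to metformin again lowered the signalling genes and Cd3d. Of the 9 members 3 were higher and 5 lower, where 40.3% of all tested genes were higher and 37.9% lower (78.2% in either direction), and 7 were apart in FPKM, where again 78.2% of all tested genes were. Lcp2 was 349, 358 and 358 CPM with the combination against 588, 582 and 574 with metformin, a log2 fold change of −0.71 ± 0.03 (adjusted p = 3.52e-12, edgeR). Cd3d changed by −0.47 ± 0.05 (adjusted p = 9.36e-08), Lck by −0.46 ± 0.03 (adjusted p = 1.13e-09), Lat by −0.45 ± 0.04 (adjusted p = 6.20e-08) and Zap70 by −0.19 ± 0.04 (adjusted p = 0.00046). On TPM only Lcp2 of these 5 stayed lower past the threshold (−0.23), while Cd3d was at −0.02, Lck at 0.02, Lat at 0.03 and Zap70 at 0.28. Cd4 changed by 0.19 ± 0.03 (adjusted p = 0.00011), Cd3g by 0.13 ± 0.04 (adjusted p = 0.0053) and Cd3e by 0.11 ± 0.04 (adjusted p = 0.012), the last of which had an adjusted p of 0.058 without metformin replicate 1. Without the filter on low values the calls of Cd3g (adjusted p = 0.061) and Cd3e (adjusted p = 0.13) were both lost. Cd247 differed by −0.03 ± 0.04 (adjusted p = 0.49), but was called higher on total counts (0.15, adjusted p = 0.0016) and on the T cell marker scale (0.25, adjusted p = 1.56e-05). The ratio to Cd3e changed by −43.6% for Lcp2, −33.2% for Cd3d, −33.0% for Lck, −32.4% for Lat and −19.3% for Zap70, each without overlap. The comparisons share groups, so their values are given side by side and were not correlated.

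The interaction is the change by metformin in the presence of FK506 minus that in its absence, and 5 members passed its test, where 46.5% of all tested genes did. It was positive for 3 members and negative for 2, where 22.5% of all tested genes were positive and 24% negative. For Zap70 metformin added 0.07 without FK506 and 0.51 with it, a difference of 0.44 ± 0.06 (log2, adjusted p = 1.30e-05, edgeR). For Lcp2 it added −0.10 and 0.24, a difference of 0.34 ± 0.04 (adjusted p = 1.27e-05). For Cd3d it added 0.30 and 0.01, a difference of −0.29 ± 0.07 (adjusted p = 0.0015). These 3 held under all 24 alternative settings, whereas Lat (0.20 ± 0.06, adjusted p = 0.013) lost its call under 5 and Cd247 (−0.18 ± 0.05, adjusted p = 0.014) under 4. The interaction of Cd4 was −0.10 and did not pass (adjusted p = 0.12), but it was called under 7 of the 24 settings. With a change of at least 1 (log2) required as well, Lcp2 with FK506 was the only member called in any comparison, where 36.6% of all tested genes were called with FK506, 10.5% with metformin, 37.4% with the combination against Control, 4.21% against FK506 and 32.2% against metformin.

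The FPKM of Cd247 was less reliable than that of the other members. Its FPKM was 132, 92.0 and 92.1 in the 3 FK506 samples and 79.4, 77.7 and 120 in the combination samples, whereas its normalised counts were 230, 233 and 216 and then 207, 203 and 213. The count behind 1 FPKM of Cd247, relative to Cd3g, was between 1.69 and 2.51, and it was lowest in FK506 replicate 1, metformin replicate 1 and combination replicate 3. These are the samples with the highest Cd247 FPKM of their groups. For each other member this quantity varied by no more than 1.05 times between its lowest and highest sample. The main fold changes of Cd247 were therefore taken from counts. Its FPKM or TPM still enters the order of levels, the numbers of members apart in FPKM, the sum and mean profile of the 4 chains, and its changes under the FPKM and TPM settings, which carry this limit. With metformin and with the combination Cd247 was apart from Control in FPKM but not in CPM.

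Other genes of the pathway were counted in 5 lists with 49 genes, all of which were tested. With FK506 26 were higher and 19 lower, with metformin 30 and 13, with the combination 27 and 17 against Control, 10 and 10 against FK506, and 19 and 19 against metformin. Of all tested genes 41.3% were higher and 39.6% lower with FK506, 28.6% and 27.4% with metformin, 42.1% and 39.6% with the combination against Control, 15.6% and 15% against FK506, and 40.3% and 37.9% against metformin. On TPM 7 were lower with FK506, and 9 were lower in the combination than in Control and 9 than with metformin, so these counts depend on the scale. Of all tested genes 3648, 3692 and 3081 were lower on TPM in these comparisons. The genes named below as higher or lower kept their direction in that comparison under all 25 alternative settings. The constant regions of the receptor itself rose with FK506 as the CD3 chains other than Cd3d did: Trac by 0.66 ± 0.03 (log2), Trbc2 by 0.17 ± 0.03 and Trbc1 by 0.09 ± 0.04. Both beta constant regions rose with metformin too, Trbc2 by 0.40 and Trbc1 by 0.31, as did Trac by 0.27. The beta constant regions are near-identical copies whose reads may have been split between them, so their separate values are uncertain.

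Among the 6 other kinases of proximal signalling, Txk and Tec, which belong to the TEC family, rose with FK506. The log2 changes were 2.42 and 1.94, from 2.50 ± 0.26 FPKM (SD, n = 3) to 15.6 ± 1.47 for Txk and from 6.78 ± 0.72 to 30.4 ± 0.99 for Tec. Tec is also known from B and myeloid cells, whose markers rose in these groups, and the part of those cells was not tested. Csk, the kinase that holds Lck inactive, did not pass in any of the 5 comparisons, with changes between −0.017 and 0.067, although its change with FK506 reached 0.53 under the 25 other settings.

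Of the 16 other adaptors and effectors 11 were higher and 5 lower with FK506, where 41.3% of all tested genes were higher and 39.6% lower. Fyb, an adaptor that binds Lcp2, rose by 1.36 with FK506, by 1.13 with metformin and by 1.36 with the combination against Control. Trat1, a transmembrane adaptor of the receptor complex, fell by 1.11 with FK506 and by 1.14 with the combination but rose by 1.02 with metformin, and was 10.3 ± 0.083 FPKM (SD, n = 3) in Control and 21.1 ± 0.033 under metformin, against 5.21 ± 0.37 under FK506 and 5.03 ± 0.78 under the combination. Malt1, a protease that takes part in the activation of NF-kappaB by the receptor, fell by 0.99 with FK506.

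On the TMM scale 5 of the 7 surface proteins were lower with FK506 and none was higher, where 39.6% of all tested genes were lower and 41.3% higher. Of these 5, Cd28 and Cd6 did not fall in mean TPM, which was 292 and 471 in Control and 296 and 495 with FK506. Thy1, a glycoprotein on all mouse T cells, fell by 1.37 on the log2 scale, from 152 ± 0.60 to 68.4 ± 0.75 FPKM, and rose by 0.65 when metformin was added to FK506, to 105 ± 3.72. Cd2, an adhesion receptor, fell by 1.21 with FK506, from 423 ± 4.93 to 212 ± 8.46 FPKM, and Cd5, an inhibitory receptor, by 0.57. Ptprc and Ptprcap differed by −0.04 and −0.08 and did not pass. In mean TPM both were higher with FK506, at 786 against 589 in Control for Ptprc and 512 against 397 for Ptprcap. Among the 17 inhibitors 9 were higher and 7 lower with FK506, against the same shares of all genes. Lax1, an adaptor that resembles Lat and dampens signalling, rose by 2.05, from 7.6 ± 0.78 to 33.3 ± 5.27 FPKM, and the phosphatase Ptprj rose by 1.57 and the Csk-binding adaptor Pag1 by 1.28. Ubash3b differed by −0.07 and did not pass. B cell and myeloid markers rose in the same comparison. The part of those cells in the rises of Lax1, Ptprj, Pag1 and other pathway genes was not tested. With metformin 12 of the inhibitors were higher, Lax1 by 0.98 among them, and 4 lower, where 28.6% of all tested genes were higher and 27.4% lower.

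The B cell counterparts of the members were set beside them on the same scale. Myeloid markers rose with FK506 as B cell markers did, and which cells these genes came from was not tested. Cd79a and Cd79b, the signalling chains of the B cell receptor, Syk, the relative of Zap70, Lyn, Blnk, Btk and Plcg2 summed to 34–34.4 FPKM in the Control samples and 44.0–50.5 with metformin, against 642–683 with FK506 and 350–373 when both were given. All 7 were higher with FK506, by a median of 4.07 (log2), where the median of the 9 members was −0.18 and that of all tested genes 0.02. All 7 were lower in the combination than with FK506, by a median of −0.68, where the members' median was 0.24. They did not fall alike: Cd79b went from 182 ± 12.5 to 73.9 ± 6.17 FPKM and Syk from 43.8 ± 4.06 to 34.4 ± 1.84. Syk was 1.31 ± 0.11 FPKM (SD, n = 3) in Control and 43.8 ± 4.06 with FK506, while Zap70 was 102 ± 4.59 and 76.8 ± 2.42. Thus Zap70 exceeded Syk in FPKM in every group, but by far less with FK506.

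The summed FPKM of the 4 CD3 chains was 602–613 without a drug, 732–767 under metformin, 710–788 under FK506 and 791–850 under the combination. The genes whose FPKM was most like the mean profile of these chains over the 12 samples were Trbc1 (Pearson's r 0.97), Trbv16 (0.95), Trbc2 (0.95), Rnf166 (0.95) and Cdk10 (0.94), out of 15188 genes compared. The samples form 4 groups and share a scale, so these values describe group levels more than single samples. The mean profile contains the FPKM of Cd247, and the chains do not share 1 profile, since the r was 0.85 for Cd3e, 0.84 for Cd3g, 0.74 for Cd247 and 0.39 for Cd3d. Each chain is itself part of the mean profile, which raises its r, so these values are not comparable with those of other genes. Among the members outside the chains Cd4 had an r of 0.84 with the same profile, Lck 0.04, Zap70 0.0075, Lcp2 −0.48 and Lat −0.59.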

How the data were processed

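Poly(A) RNA of 12 samples, 3 in each of 4 groups, was sequenced, and the labels of the samples gave their groups. The authors deposited read counts per gene without normalization, FPKM values (scaled to library size and transcript length) and TPM values (scaled to the same total in every sample) in 1 table of 45777 genes, with 12 columns of each, and no column of per-sample values was left unused. The submitters' processing notes name bcl2fastq 2.20.0, Trimmomatic, HISAT2 2.1.0, StringTie 2.1.3b and the build mm10. How each was set, whether strand was used and how reads shared by similar genes were counted are not given in the sources used here. The methods of the study also list anti-CD28 among the activation conditions, which the labels of these samples do not.

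Read counts were tested with edgeR 4.0.16 (TMM, glmQLFit and glmQLFTest) in R 4.3.3, in 1 fit of all 4 groups, for genes with an FPKM of 0.5 or more in 3 or more samples, with Benjamini-Hochberg adjustment over all 15197 of them and a threshold of 0.05. Each member's FPKM values were further tested by two-sided exact permutation (scipy 1.17.1), which at 3 against 3 samples cannot go below p = 0.1. That value is reached when 2 groups do not overlap, so the test only repeats the numbers of members apart in FPKM. These were 8 with FK506, 9 with metformin, 7 with the combination against Control, 6 against FK506 and 7 against metformin. Of all tested genes 84.4%, 65%, 82%, 38.6% and 78.2% were apart in the same comparisons. Alternatives were DESeq2 1.42.0, limma 3.58.1 on log2(FPKM + 1), with a pseudocount of 0.1 or quantile normalization, other scalings and filters, a replicate block and leaving out each sample. limma on log2(TPM + 1) was chosen after seeing that the FPKM columns sum to different totals. The test was checked on simulated data. Total counts per sample were 43402632 to 64290105. Motif letters were searched on both strands. Genes named were the 9 members, in each pathway list at most the 3 with the largest change in a comparison and those that did not pass, and fixed B cell counterparts. Some genes that this rule names are not reported here. The members and lists were chosen with earlier results of these data known.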

Additional observations from a re-analysis of the deposited data

Results flagged for a closer look

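The effect of metformin differed between cultures with and without FK506 for 5 members, by the interaction term of the edgeR fit over all 15197 genes. The difference (log2 change by metformin with FK506 minus that without it) was 0.44 for Zap70, 0.34 for Lcp2, 0.20 for Lat, −0.29 for Cd3d and −0.18 for Cd247. The call of Lat was lost under 5 of the 24 alternative settings and that of Cd247 under 4, while the other calls held under all. For Zap70 and Lcp2 the samples of the combination all lay above those of FK506, and for Cd3d the samples of metformin all lay above those of Control. Of all tested genes 46.5% passed the same test, so that a difference of this kind was common in these data. B cell and myeloid markers moved in the same groups, and their part in these differences was not tested.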

How the results depend on the processing

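The 9 members and 5 comparisons with the interaction were refitted under up to 25 alternatives. The calls that passed under all of them were Cd3e, Cd247 and Cd4 higher and Zap70, Lat and Lcp2 lower with FK506, Cd3e, Cd3d, Cd3g, Cd4 and Lck higher with metformin, Cd3e, Cd3g and Cd4 higher and Lat and Lcp2 lower with the combination, Cd3e, Cd3g, Cd4, Lck, Zap70 and Lcp2 higher in the combination than with FK506, Cd4 higher and Lcp2 lower in the combination than with metformin, and the interactions of Zap70, Lcp2 and Cd3d. Most changes of direction came with another scale of the libraries, and their cause was not tested. The log2 changes that turned are given next. For FK506, Cd3d was 0.048 on total counts, 0.25 on the T cell marker scale, 0.017 on log2(FPKM + 1), 0.017 on log2(FPKM + 0.1), 0.14 on quantile-normalized FPKM and 0.25 on log2(TPM + 1). For metformin, Lat was 0.026 on quantile-normalized FPKM. Lcp2 was 0.071 on quantile-normalized FPKM. For the combination, Cd3d was 0.047 on total counts, 0.19 on the T cell marker scale, 0.23 on quantile-normalized FPKM and 0.24 on log2(TPM + 1). Zap70 was 0.093 on total counts, 0.24 on the T cell marker scale, 0.063 on log2(FPKM + 1), 0.064 on log2(FPKM + 0.1), 0.28 on quantile-normalized FPKM and 0.33 on log2(TPM + 1). Lck was 0.090 on the T cell marker scale, 0.12 on quantile-normalized FPKM and 0.19 on log2(TPM + 1). Cd247 was −0.030 without a filter. For the combination against FK506, Cd3d was −0.0049 with DESeq2 size factors, −0.00047 with upper quartile scaling, −0.00087 on total counts, −0.061 on the T cell marker scale, −0.015 without a filter, −0.0049 with DESeq2, −0.043 on log2(FPKM + 1), −0.044 on log2(FPKM + 0.1) and −0.012 on log2(TPM + 1). Lat was −0.044 on the T cell marker scale, −0.00016 on log2(FPKM + 1) and −0.00016 on log2(FPKM + 0.1). For the combination against metformin, Cd247 was 0.15 on total counts, 0.25 on the T cell marker scale, 0.039 on log2(FPKM + 1), 0.040 on log2(FPKM + 0.1), 0.11 on quantile-normalized FPKM and 0.36 on log2(TPM + 1). Zap70 was 0.082 on the T cell marker scale, 0.067 on quantile-normalized FPKM and 0.28 on log2(TPM + 1). Lck was 0.019 on log2(TPM + 1). Lat was 0.033 on log2(TPM + 1). For the interaction, Cd3g was −0.036 with upper quartile scaling, −0.025 on total counts, −0.14 on the T cell marker scale, −0.038 on log2(FPKM + 1), −0.038 on log2(FPKM + 0.1) and −0.12 on quantile-normalized FPKM. Lck was −0.011 with upper quartile scaling, −0.00028 on total counts, −0.11 on the T cell marker scale, −0.014 on log2(FPKM + 1), −0.014 on log2(FPKM + 0.1) and −0.042 on quantile-normalized FPKM. Cd3e was 0.0049 on log2(TPM + 1). With single samples left out, Cd3d in the combination against FK506 ranged from −0.039 to 0.051, Lat from −0.017 to 0.064, and the interactions of Cd3e from −0.053 to 0.0057 and of Cd3g from −0.030 to 0.051.

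The number of members lower with FK506 was 3 on TPM. Of all 15197 tested genes 3648 were lower on that scale, against 6014 on the TMM scale. With metformin the number of members lower was 1 with upper quartile scaling, total counts and both FPKM pseudocounts, 0 on the T cell marker scale and quantile-normalized FPKM, and 1 to 2 with single samples left out. Of all tested genes 3679 were lower with upper quartile scaling, 3789 on total counts, and 3578 and 3616 with pseudocounts of 1 and 0.1. On the T cell marker scale 3208 were lower, and on quantile-normalized FPKM 3465, against 4159 on the TMM scale. For the combination against Control 5 members were higher and 2 lower on total counts, 7 and 2 on the T cell marker scale, on quantile-normalized FPKM and on TPM, and 3 were lower with both FPKM pseudocounts. Of all tested genes 7773 were higher and 4813 lower on total counts, and 8595 and 4065 on the T cell marker scale. On quantile-normalized FPKM 6002 were higher and 6204 lower, and on TPM 9032 and 3692, against 6401 and 6011 on the TMM scale. With pseudocounts of 1 and 0.1, 4991 and 4984 of all genes were lower. Against FK506, 0 members were lower on TPM, with each FPKM test and when the 2 groups were fitted alone, and 0 to 1 with single samples left out. Of all tested genes 2158 were lower on TPM and on quantile-normalized FPKM. With pseudocounts of 1 and 0.1 it was 2653 and 2477, and with the 2 groups alone 1857. Against metformin, 1 member was higher without a filter, where 7245 of 27636 genes were, and 1 was lower on TPM, where 3081 of 15197 genes were. The interaction was negative for 6 members on the T cell marker scale, 4 on quantile-normalized FPKM and 1 on TPM. For all tested genes these numbers were 5356, 3624 and 3218, against 3649 on the TMM scale. With a log2 change of at least 1 required as well, 1 member was lower with FK506 and 0 members were called in any other direction or comparison.

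Of the pathway genes 12 were lower with FK506 on total counts, 11 with each FPKM test and 7 on the T cell marker scale and on TPM. Of all 15197 tested genes 4728 were lower on total counts, 3726 on the T cell marker scale and 3648 on TPM. In the FPKM tests 4785 (pseudocount 1), 4754 (pseudocount 0.1) and 6318 (quantile-normalized) were lower. For the combination against Control 10, 11 and 9 pathway genes were lower on the T cell marker scale, quantile-normalized FPKM and TPM, where 4065, 6204 and 3692 of all genes were. Against FK506 19 were lower on the T cell marker scale, where 3502 of all genes were. Against metformin 12 were lower on total counts, 33 were higher and 12 lower on the T cell marker scale, and 37 were higher and 9 lower on TPM. Of all genes 4553 were lower on total counts, 8164 higher and 3959 lower on the T cell marker scale, and 9487 higher and 3081 lower on TPM.

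Same-numbered samples did not deviate together: 18 pairs had correlations of −0.15 to 0.085, and a sample correlated best with its own number in 14 of 36 cases. The numbers were taken as names only, and with the replicate block 54 of 54 member results kept their call. Of the means of the 9 members in the 3 drug groups, 17 lay above the Control mean on FPKM, 15 on CPM and 19 on TPM. Each member had at least 8338 reads in each sample.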
